A study of Mus musculus with 36 samples.

Results

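Zfp534 and Gm13154 are neighbouring zinc finger genes of mouse chromosome 4, picked from the 23361 gene names of the deposited tables because their difference between Ret null and wild-type gut was large at E10.5 and was no longer so at E12.5. These 2 genes were followed library by library beside Ret itself. RNA of dissected embryonic gut had been sequenced in libraries labelled Ret null and libraries labelled wild type, at E10.5, at E12.5 and at E14.5. Each stage and genotype held 3 libraries labelled female and 3 labelled male, 36 in all. Every library carries the strain label C57BL/6J, and the labels name no further allele, do not say how the null allele was made and do not say whether a library is 1 embryo. Levels are FPKM, fragments per kilobase of transcript, scaled to library depth.

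Ret encodes a receptor for GDNF family ligands that neural crest cells need to colonise the gut and form its nervous system. C2H2 zinc finger proteins bind DNA through tandem fingers, and the KRAB class of them, which is expanded in large clusters on mouse chromosomes, represses its targets through the corepressor Trim28 and the histone methyltransferase Setdb1. Many of these proteins bind retrotransposons in early embryos and embryonic stem cells. The distal part of mouse chromosome 4 holds one such cluster.

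Zfp534 lies on the minus strand at chr4:147673503-147702553 and Gm13154 on the plus strand at chr4:147553277-147585201 (mm10), with starts 120 kb apart. RefSeq and GENCODE now name Gm13154 as Zfp985. Zfp534 has 4 exons and an open reading frame of 661 residues with 15 C2H2 fingers, and Gm13154 has 6 exons and 519 residues with 10 fingers. The predicted proteins were 83.8% identical over 519 residues and the transcripts 92.8% identical over 2399 bases. Their RefSeq promoters (GRCm38.p6), each running from 250 bases before to 50 bases after the annotated start, are shown because they are the closest regulatory sequence of the pair; capitals mark the longest run of bases that both share, 50 in all. The Zfp534 promoter is chr4:147702582-147702881 on the minus strand and that of Gm13154 chr4:147553027-147553326 on the plus strand.
Zfp534: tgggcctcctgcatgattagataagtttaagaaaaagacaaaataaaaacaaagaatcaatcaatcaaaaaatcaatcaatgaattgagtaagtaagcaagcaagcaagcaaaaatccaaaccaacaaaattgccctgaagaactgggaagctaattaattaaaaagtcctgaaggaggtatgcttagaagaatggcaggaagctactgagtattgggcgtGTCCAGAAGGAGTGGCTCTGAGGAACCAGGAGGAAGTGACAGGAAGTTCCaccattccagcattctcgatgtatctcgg
Gm13154: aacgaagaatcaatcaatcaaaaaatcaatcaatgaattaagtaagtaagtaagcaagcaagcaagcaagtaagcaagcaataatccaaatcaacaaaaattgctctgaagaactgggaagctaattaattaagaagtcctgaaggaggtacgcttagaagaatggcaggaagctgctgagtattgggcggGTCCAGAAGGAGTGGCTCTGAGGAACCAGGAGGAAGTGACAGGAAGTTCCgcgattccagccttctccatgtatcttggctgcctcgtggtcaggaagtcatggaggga

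These promoters were 94.1% identical over 253 aligned bases. Each held 1 CCAAT match (letters CCAAT, either strand), found in 37.4% of all 32851 promoters of the same length, and neither held TATAAA, found in 13.6%. GGGCGG was present once in Gm13154 and not in Zfp534, and in 35.7% of all promoters. Zfp534 had 3 CpG sites and Gm13154 6, beside a median of 7. Of 75-base windows, the read length, only 6 (0.231%) of the Zfp534 transcript were also in Gm13154, so reads of the 2 genes can mostly be told apart. By contrast 53.6% of Zfp534 windows were also in some other gene, 43.7% in Gm13051 alone, so Zfp534 and Gm13051 share reads and the level of either is uncertain to that extent; the corresponding share was 4.72% for Gm13154.

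Some libraries went against their labels. Ret stood at 1 FPKM or more in 7 of the 18 libraries labelled Ret null: E10.5 females 1, 2 and 3, E12.5 male 2, and E14.5 females 1 and 3 and male 1. Xist or Y-linked RNA went against the sex label in 4 libraries: E10.5 Ret null female 3 and male 1, and E12.5 wild-type females 1 and 2. Within 4 pairs the libraries differed by about counting noise (0.917 to 1.08 times, with under 1% of genes beyond 3 SD), namely females 1 and 2 of E10.5 Ret null, females 1 and 2 and males 3 and 4 of wild type at E10.5, and the first 2 wild-type females of E12.5. The tables of the 3 E10.5 Ret null females also stand apart in form, as the only ones in which every gene has an OK status. The close pairs were averaged into 1 sample each, leaving 32 samples. E14.5 Ret null males 2 and 3, at 1.05 times counting noise but with 1.60% of genes beyond 3 SD, were kept as 2 samples. No marker of the gut epithelium or gut mesenchyme lists was under 0.1 FPKM in all libraries of a stage and genotype.

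At E10.5 both genes were high in every library labelled Ret null, whether or not Ret was present. Zfp534 had 4.14, 3.55 and 4.02 FPKM in the 3 Ret null females, where Ret stood at 5.37, 4.74 and 5.76 FPKM. It had 4.07, 3.69 and 3.82 FPKM in the 3 Ret null males, where Ret stood at 0.0217, 0.0509 and 0.0123 FPKM. In wild type, where Ret was 2.11 to 7.34 FPKM, Zfp534 had 0.613, 0.538 and 0.276 FPKM in females and 0.363, 0.459 and 0.382 FPKM in males. The 2 genotype labels did not overlap, and the lowest Ret null library stood at 5.79 times the highest wild-type one. The Ret null libraries with Ret (3.55 to 4.14 FPKM) and those without (3.69 to 4.07 FPKM) overlapped.

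Gm13154 followed the same label with a smaller ratio. It had 1.76, 1.92 and 1.68 FPKM in Ret null females and 1.56, 1.22 and 1.61 FPKM in Ret null males. Wild-type females had 0.434, 0.280 and 0.246 FPKM and wild-type males 0.303, 0.520 and 0.402 FPKM. The labels did not overlap here either, and the 3 Ret null libraries with Ret were above the 3 without it. Those with Ret are all labelled female and those without all male, so Ret and sex label cannot be told apart here.

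Averaged over samples, Zfp534 was 3.89 ± 0.15 FPKM in Ret null gut (SD, n = 5) and 0.411 ± 0.12 FPKM in wild-type gut (SD, n = 4), a ratio of 9.46. Gm13154 was 1.58 ± 0.23 FPKM in Ret null gut (SD, n = 5) and 0.354 ± 0.076 FPKM in wild-type gut (SD, n = 4), a ratio of 4.47. On the log2(FPKM + 1) scale, which understates changes of low genes, the fitted difference was 1.80 (SE 0.09) for Zfp534 and 0.94 (SE 0.10) for Gm13154. For Zfp534 it was 1.80 in females and 1.80 in males, and for Gm13154 1.08 in females and 0.80 in males. These E10.5 differences chose the genes and carry no test; 8.29% of the 13165 genes tested had a Benjamini-Hochberg adjusted p under 0.05 in limma at this stage, 5.61% higher and 2.67% lower in Ret null (739 and 352 genes; 567 and 821 after upper-quartile scaling, which gave 1.77 for Zfp534 and 0.92 for Gm13154). Without the 3 Ret null libraries that hold Ret, which leaves males only, the differences were 1.80 and 0.80 while 0.522% of genes were called.

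**Figure D1:**
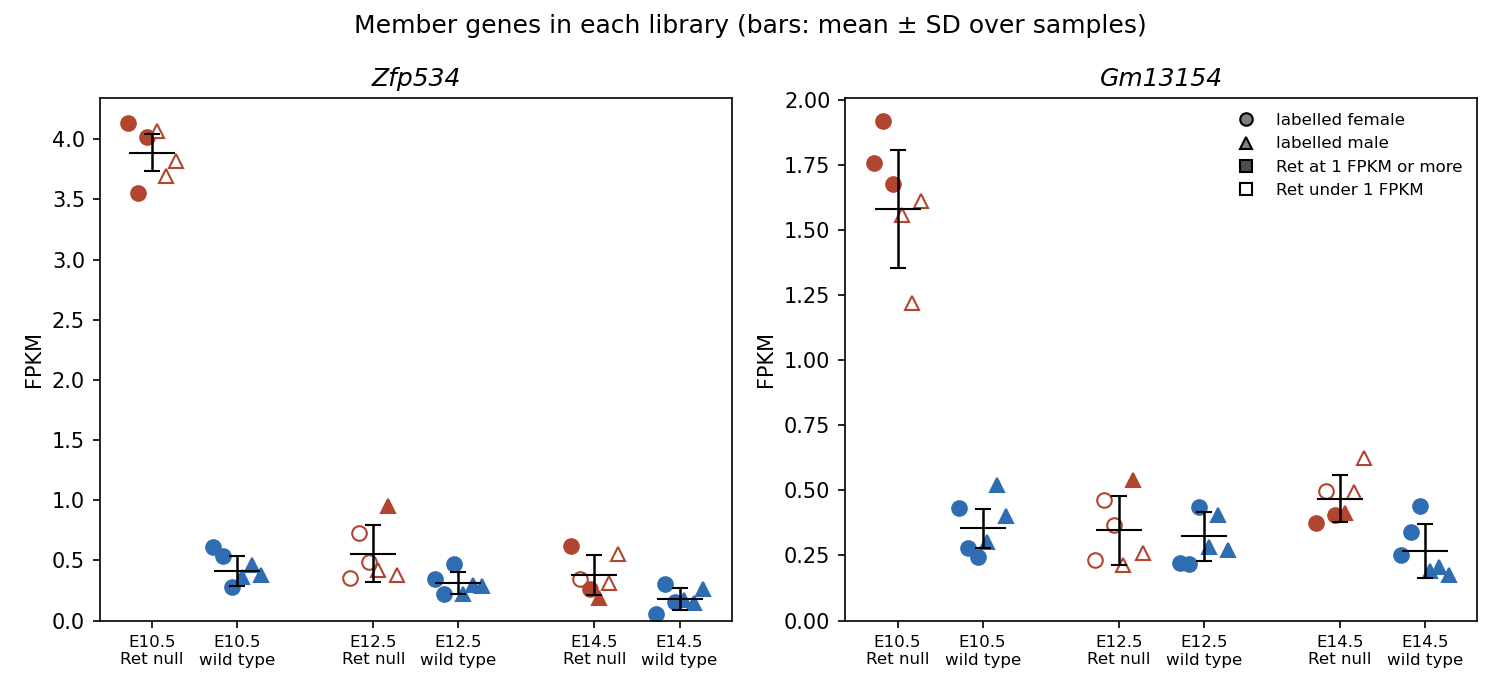
Level of Zfp534 (left) and Gm13154 (right) in FPKM in each of the 36 libraries, by stage, with Ret null left of wild type; circles are labelled female and triangles male, filled where Ret is at 1 FPKM or more, and bars give the mean ± SD over samples. The 6 E10.5 Ret null libraries stand apart, at 3.55 to 4.14 FPKM for Zfp534 and 1.22 to 1.92 FPKM for Gm13154, with filled and open symbols mixed for Zfp534.

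Summed levels of the 10 gut mesenchyme and smooth muscle markers were 471 to 688 FPKM in Ret null and 167 to 308 FPKM in wild-type libraries. The 10 germ cell markers summed to 7.53 to 23.4 FPKM in Ret null and 5.90 to 15.8 FPKM in wild type. The 10 markers of pluripotent and 2-cell-like cells summed to 0.754 to 19.3 FPKM in Ret null and 3.30 to 17.3 FPKM in wild type, with Zscan4c, Zscan4d and Tcstv1, which mark the 2-cell-like state, under 0.1 FPKM throughout. Of these 3 sums only that of the mesenchyme markers did not overlap between the labels, and its part in the members' values was not tested. Fewer cells of a type and less RNA per cell cannot be told apart in such bulk samples.

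At E12.5 both genes were under 1 FPKM in all 12 libraries and below the level at which genes entered the fit. Zfp534 had 0.352, 0.726 and 0.490 FPKM in Ret null females and 0.422, 0.956 and 0.381 FPKM in Ret null males, against 0.342, 0.219 and 0.469 FPKM in wild-type females and 0.222, 0.297 and 0.286 FPKM in wild-type males. Gm13154 had 0.231, 0.463 and 0.368 FPKM in Ret null females and 0.215, 0.539 and 0.260 FPKM in Ret null males, against 0.220, 0.218 and 0.436 FPKM in wild-type females and 0.282, 0.405 and 0.271 FPKM in wild-type males. The labels overlapped for both genes. The ratio of means was 1.78 for Zfp534 and 1.07 for Gm13154, again part of what chose the genes and given with no test; 0.00759% of the 13182 genes tested, which is 1 gene, Mir3096b, were called at this stage (1115 had an unadjusted p under 0.05).

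The highest E12.5 library for both genes was Ret null male 2, the 1 library of its label that held Ret (6.12 FPKM). Pluripotency markers differed among the same libraries. Their sum was 17.2 FPKM in Ret null female 2, 18.5 FPKM in female 3 and 26.6 FPKM in male 2, where Zfp534 was 0.726, 0.490 and 0.956 FPKM. It was 1.15 FPKM in female 1, 11.8 FPKM in male 1 and 1.26 FPKM in male 3, where Zfp534 was 0.352, 0.422 and 0.381 FPKM. The wild-type sums were 0.638 to 1.90 FPKM. Germ cell marker sums were 7.84 to 27.97 FPKM in Ret null and 4.97 to 10.8 FPKM in wild type. The 3 Ret null libraries with the largest pluripotency sums were those with the 3 highest Zfp534 levels at this stage. At E10.5 the Ret null libraries with the lowest sums, female 3 (1.32 FPKM) and male 3 (0.754 FPKM), had Zfp534 at 4.02 and 3.82 FPKM, within the range of the other 4. At E14.5 the highest sum, 2.63 FPKM in wild-type female 1, stood beside the lowest Zfp534 level, 0.0503 FPKM. What part those markers have in the level was not tested.

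**Figure D2:**
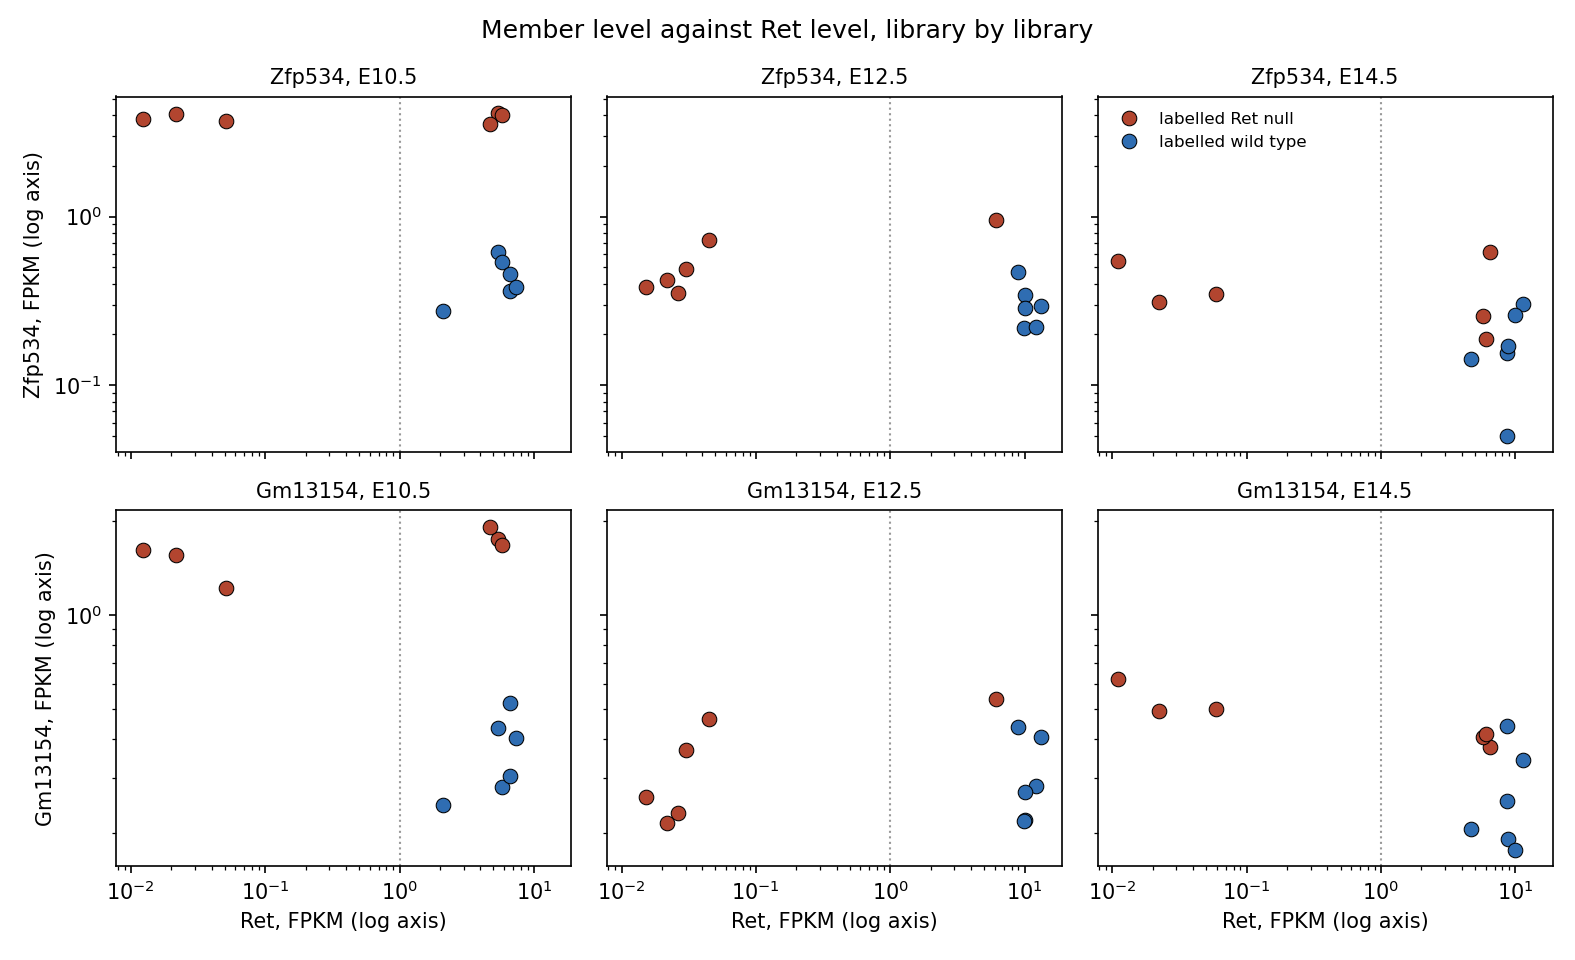
Level of each gene against Ret in the same library, both in FPKM on log axes, for Zfp534 (top) and Gm13154 (bottom) at the 3 stages; red points are labelled Ret null, blue points wild type, and the dotted line marks Ret at 1 FPKM. At E10.5 the 3 Ret null points left of the line and the 3 right of it are at like levels of Zfp534 (3.69 to 4.07 and 3.55 to 4.14 FPKM), and the wild-type points at comparable Ret lie at 0.276 to 0.613 FPKM.

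E14.5 was not used to choose the genes, so its genotype difference could be tested. Zfp534 had 0.619, 0.349 and 0.258 FPKM in Ret null females and 0.188, 0.310 and 0.549 FPKM in Ret null males, against 0.0503, 0.305 and 0.155 FPKM in wild-type females and 0.172, 0.143 and 0.261 FPKM in wild-type males. The labels overlapped. The mean of log2(FPKM + 1) was 0.22 higher in Ret null (two-sided exact permutation p = 0.0216, n = 6 per label), with a ratio of mean FPKM of 2.09. The unfiltered limma fit, adjusted over all genes, did not call it (adjusted p = 0.127). In that fit 5634 of 19693 genes had an unadjusted limma p under 0.05, and the exact p-values of both members are unadjusted too. The exact permutation p was 0.0519 when wild-type female 1 was left out, and 0.0519 when wild-type male 2 was.

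Gm13154 had 0.376, 0.499 and 0.404 FPKM in Ret null females and 0.414, 0.493 and 0.623 FPKM in Ret null males, against 0.252, 0.341 and 0.439 FPKM in wild-type females and 0.191, 0.205 and 0.177 FPKM in wild-type males. The only overlap came from wild-type female 3, which lay above 3 Ret null libraries. The mean of log2(FPKM + 1) was 0.21 higher in Ret null (two-sided exact permutation p = 0.00866, n = 6 per label), and the unfiltered limma fit called it too (SE 0.047, adjusted p = 0.0277). In that unfiltered fit 6.1% of 19693 genes were called higher, and with the level filter 10.9% of 13861. The ratio of mean FPKM was 1.75.

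These E14.5 differences rest on few fragments. The width of the authors' intervals corresponds to 17.1 to 23.9 fragments of Gm13154 in Ret null libraries and to fewer than that in each of the 6 wild-type libraries, down to 5.6. For Zfp534 it corresponds to 9.6 to 27.0 fragments in Ret null libraries. The Zfp534 interval reached 0 in wild-type females 1 and 3 and corresponds to 6.0 to 11.1 fragments in the other wild-type libraries. Library depth, read the same way, in M fragments, was 6.19 to 8.09 in Ret null libraries and 4.88 to 6.79 in wild-type libraries. These depth ranges overlapped, with that of Ret null reaching higher. The 8 blood markers summed to 2368 to 5925 FPKM in Ret null (median 3090) and 4316 to 29293 FPKM in wild type (median 9195), and the germ cell markers to 9.71 to 13.4 FPKM in Ret null and 6.61 to 10.8 FPKM in wild type. The labels overlapped in both sums, and the part of depth and of these markers in the difference was not tested. Without the 3 Ret null libraries that hold Ret the difference was 0.28 for Gm13154 and 0.25 for Zfp534 (exact permutation p = 0.0119 for each, the smallest that 3 against 6 samples allows). With Ret null males 2 and 3 averaged as well, an alternative added after the data were seen, it was 0.20 for Gm13154 and 0.21 for Zfp534 (exact permutation p = 0.0173 and p = 0.0368). Gm13154 was 0.376, 0.404 and 0.414 FPKM in the Ret null libraries with Ret and 0.499, 0.493 and 0.623 FPKM in those without.

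No difference between male and female libraries was detected for either gene at any stage. At E10.5 the log2 difference, male minus female, was -0.02 (SE 0.09, adjusted p = 0.901 in limma) for Zfp534 and -0.03 (SE 0.10, adjusted p = 0.892) for Gm13154. No wild-type library reached 1 FPKM there, so both genes entered that fit only through Ret null libraries. The unfiltered limma fit gave adjusted p = 0.909 and 0.866. Within Ret null at that stage, male against female is also Ret absent against present. At E12.5 it was -0.05 for Zfp534 and -0.02 for Gm13154 (exact permutation p = 0.712 and p = 0.838). At E14.5 it was -0.02 and -0.05 (exact permutation p = 0.885 and p = 0.6). The genotype difference at E14.5 was larger in males than in females for Gm13154 by 0.25 on the log2(FPKM + 1) scale (exact permutation of sex within genotype, p = 0.025), where limma adjusted over all genes gave p = 0.954. For Zfp534 the corresponding value was -0.09 (exact permutation p = 0.59).

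Ordered by their median, the 6 stage and genotype groups placed E10.5 Ret null first for both genes, without overlap with the next group. For Zfp534 the medians then ran 0.456 FPKM in E12.5 Ret null, 0.420 in E10.5 wild type, 0.330 in E14.5 Ret null, 0.291 in E12.5 wild type and 0.163 in E14.5 wild type, and each neighbouring pair overlapped. For Gm13154 they ran 0.453 FPKM in E14.5 Ret null, 0.352 in E10.5 wild type, 0.314 in E12.5 Ret null, 0.276 in E12.5 wild type and 0.229 in E14.5 wild type, again with each pair overlapping. The level of Zfp534 per library was 1.85 to 3.02 times that of Gm13154 in E10.5 Ret null and 0.881 to 1.92 times in E10.5 wild type. It was 1.33 to 1.96 times in E12.5 Ret null and 0.732 to 1.56 times in E12.5 wild type. By E14.5 the median of this ratio was under 1 in both, 0.668 in Ret null and 0.794 in wild type. Its ranges there, 0.455 to 1.65 in Ret null and 0.1995 to 1.48 in wild type, lay on both sides of 1.

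Over all 32 samples the gene whose log2(FPKM + 1) was most like that of Zfp534 among 14396 was Gm13051 (Pearson r = 0.957), a neighbour with which it shares reads, followed by Gm13154 (0.953), Cort (0.881), Gpt (0.834) and 2610305D13Rik (0.803). For Gm13154 the order was Zfp534 (0.953), Gm13051 (0.931), Cort (0.837), Gpt (0.826) and Clcn6 (0.824). All but Gpt, an alanine aminotransferase on chromosome 15, lie on chromosome 4 near the pair. The 32 samples include the E10.5 ones whose values chose the members, so genes that differ there can rank high. Cort and Gm13051 entered the E10.5 fit only through Ret null libraries. The order is therefore a description and no separate support for a shared difference. The members' own correlation was 0.981 over 9 samples at E10.5, 0.761 over 11 at E12.5 and 0.557 over 12 at E14.5; the samples share stage, genotype and depth, so these are descriptions. Cort, the precursor of cortistatin, had 0.647 to 1.72 FPKM in E10.5 Ret null libraries and 0.0831 to 0.582 FPKM in wild type. Gpt had 5.02 to 6.05 FPKM in E10.5 Ret null and 2.86 to 3.93 FPKM in wild type.

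The 14 other zinc finger entries within 2 Mb of the members, defined by 3 or more C2H2 fingers, did not move one way. At E10.5, 10 passed the level filter, and 2 were higher and 3 lower in Ret null (5 called, against 8.29% of all genes tested); their median log2 difference was -0.08, beside 0.01 over all genes. Gm13051 (now Zfp987) had 2.14 to 2.78 FPKM in Ret null libraries and 0.513 to 0.892 FPKM in wild-type libraries (log2 difference 0.99, SE 0.10). No wild-type library reached 1 FPKM, so Gm13051 entered the fit only through its Ret null libraries, and 46.4% of its 75-base windows are shared with Zfp534, whose E10.5 values chose the genes; its difference is therefore a description. 2610305D13Rik (Zfp979), between the members, had 3.04 to 3.64 FPKM in Ret null and 1.71 to 2.51 FPKM in wild type (0.48, SE 0.08, limma adjusted p = 0.0176). Neither overlapped between the labels, and both were higher in Ret null, as the members were. The share of all genes whose labels did not overlap at E10.5 is not given here.

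Gm13139 (Zfp991) and Gm13152 (Zfp982) went the other way at E10.5. Gm13139 is listed at 2 loci. The first entry had 6.60 to 8.92 FPKM in Ret null and 11.3 to 17.2 FPKM in wild type (log2 difference -0.77, limma adjusted p = 0.00394), and the second 5.63 to 6.53 FPKM in Ret null and 8.36 to 12.02 FPKM in wild type (-0.62, limma adjusted p = 0.00443). Gm13152 had 2.58 to 3.02 FPKM in Ret null and 3.41 to 5.52 FPKM in wild type (-0.58, limma adjusted p = 0.00813). None of these 3 overlapped between the labels, and the share of all genes without overlap is again not given. Reads of near-identical copies can be split between entries, since 80.0% of Gm13139 windows, 87.4% of Gm13051 windows and 4.67% of Gm13152 windows occur in other genes.

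Without the Ret null libraries that hold Ret the 4 called entries other than Gm13051 lost their calls (limma adjusted p of 0.0868 to 0.112), with log2 differences of 0.54 for 2610305D13Rik, -0.59 and -0.49 for Gm13139 and -0.44 for Gm13152; the difference of Gm13051 was 0.97. Without the libraries whose sex RNA went against the label 2610305D13Rik (0.49, adjusted p = 0.0764) and Gm13152 (-0.59, adjusted p = 0.0576) lost theirs. 2610305D13Rik also lost its call with the wild-type males 3 and 4 left out (0.46, adjusted p = 0.0687) or male 5 left out (0.50, adjusted p = 0.0645). Gm13157, Gm13212 and Zfp933, which are the most abundant of the other entries, had log2 differences of 0.13, 0.07 and -0.24 at E10.5 with limma adjusted p of 0.287, 0.697 and 0.0893.

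At E12.5 none of the 9 zinc finger entries tested was called, with a median difference of 0.04. At E14.5, 2 of 9 were called, both of them Gm13139 and both higher in Ret null (log2 differences 0.52 and 0.62, limma adjusted p = 0.0194 and 0.0162), where 15.7% of all genes were called, 10.9% higher and 4.84% lower. The first Gm13139 entry had adjusted p = 0.0512 without Ret null female 1 and 0.0549 without Ret null male 3. The count became 1 (the second Gm13139 entry) without Ret null female 1 and likewise without Ret null male 3, and 4 without Ret null female 3, when Gm13152 and Gm13251 joined the Gm13139 entries. Without the Ret null libraries that hold Ret it was 1, and that gene was Gm13152, not Gm13139 (log2 differences of 0.54 and 0.62, adjusted p = 0.061 and 0.0552, for the Gm13139 entries). Gm13139 stood lower in Ret null at E10.5 and higher at E14.5, and the difference between those stages was not tested.

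**Figure D3:**
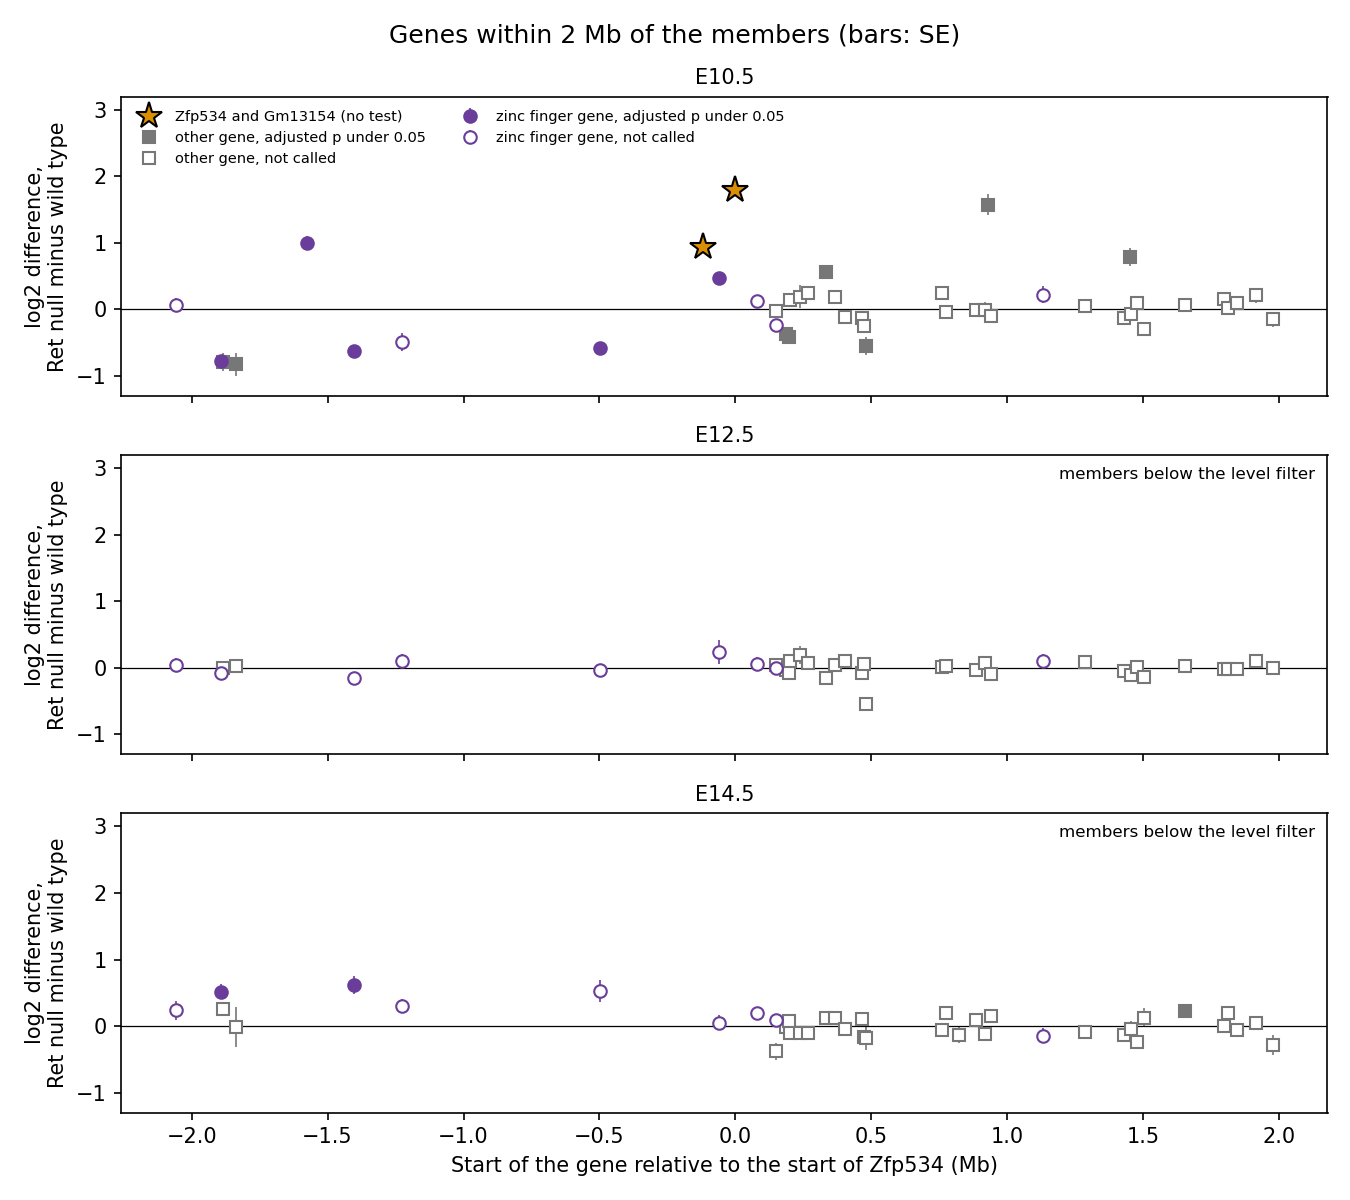
Log2 difference, Ret null minus wild type, with SE bars, of each tested gene within 2 Mb against the distance of its start from that of Zfp534 in Mb, at the 3 stages; circles are zinc finger genes and squares other genes, filled where the limma adjusted p is under 0.05, and stars are the members, which carry no test. At E10.5 called genes lie both above and below 0, from 1.57 for Masp2 to -0.82 for Gm13238, and Masp2, Cort and Gm13051 entered the fit only through their Ret null libraries; at E12.5 none is called.

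Of the genes near the pair not counted as zinc finger genes, 8 of 32 were called at E10.5, 3 higher and 5 lower in Ret null, where 8.29% of all genes were called. Fingers were counted in protein-coding transcripts only, so pseudogenes fall in this group. Clcn6, a chloride transporter of the endosome, was higher, with 7.58 to 9.30 FPKM in Ret null and 4.57 to 5.73 FPKM in wild type (0.56, limma adjusted p = 0.00407). The other 2 higher ones, Cort (0.78) and Masp2 (1.57), had no wild-type library at 1 FPKM and so entered the fit only through their Ret null libraries; their differences are descriptions. Masp2, a serine protease of the lectin complement pathway, had 1.65 to 3.38 FPKM in Ret null and 0 to 0.444 FPKM in wild type, and its locus overlaps that of Tardbp on the annotation, so its reads are uncertain. The 5 lower ones were Gm13238 (-0.82), Znf41-ps (-0.79), Fbxo44 (-0.55), Fv1 (a retroviral restriction gene; -0.42) and Miip (-0.36), with limma adjusted p of 0.0166 to 0.0479. Znf41-ps is a pseudogene whose locus overlaps the first Gm13139 entry, so its reads are uncertain, as is its count as a separate gene. Fv1 had 4.42 to 5.73 FPKM in Ret null and 6.42 to 8.10 FPKM in wild type. Clcn6 lost its call without the Ret null libraries that hold Ret (0.44, limma adjusted p = 0.0822). So did the 5 lower genes, with limma adjusted p of 0.0765 to 0.147. Apart from Clcn6 and Cort, these genes were named after their values were seen. At E12.5 none of 30 such genes was called, and at E14.5 1 of 31 was, where 15.7% of all genes were.

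Counted over fixed windows of 5 Mb, the one on chromosome 4 that holds the members had 14 of 48 tested genes called at E10.5 with the members left out, 29.2%, beside a median window of 7.37% and 3.28 to 24.0% in the 15 other windows of chromosome 4. It ranked 1 of the 257 windows with 20 or more tested genes. Counting only genes with a library at 1 FPKM or more in both labels, which leaves out Gm13051, Cort and Masp2, it had 11 of 45 genes called, 24.4%, beside a median window of 6.98%, and ranked 3 of 253. Both E10.5 counts hold both Gm13139 entries and Znf41-ps, whose locus overlaps the first entry, so the called genes are not all separate ones. At E14.5 the same window had 4 of 46 genes called, 8.7%, beside a median window of 15.2%. The window was examined because the members lie in it, and the window length, the minimum of 20 tested genes and the count over both labels were chosen after the data were seen. These E10.5 counts include the Ret null libraries that hold Ret, without which 0.522% of all genes were called.

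**Figure D4:**
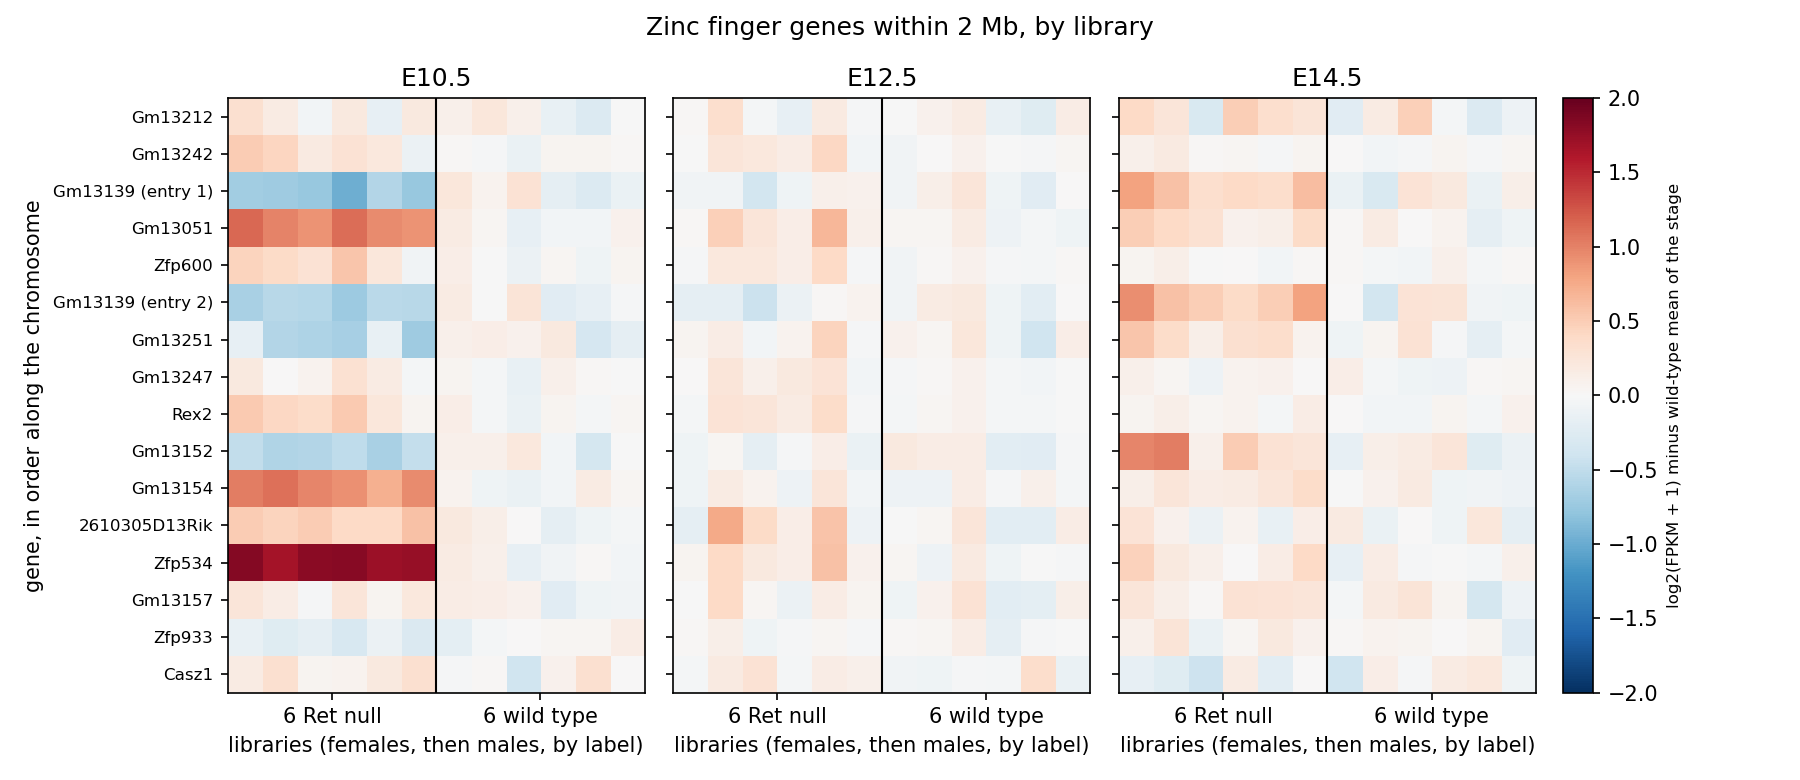
Log2(FPKM + 1) of the zinc finger genes within 2 Mb, in order along the chromosome, as the difference from the wild-type mean of the same stage, for 6 Ret null (left) and 6 wild-type libraries (right) per stage; red is higher and blue lower. At E10.5 Zfp534, Gm13154, Gm13051 and 2610305D13Rik are red in all 6 Ret null libraries while Gm13139 and Gm13152 are blue.

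RefSeq promoters were available for 11 neighbouring zinc finger genes, and 8 of them aligned with that of Zfp534 over 196 to 264 bases, at 84.3 to 98.8% identity. Both Gm13139 entries and Gm13251 had none and were not compared. Their E10.5 log2 differences were -0.77, -0.62 and -0.49. That of Gm13051 was the closest, at 98.8% over 251 bases, and that of 2610305D13Rik was 91.2% identical over 260. The E10.5 means of Gm13051 and 2610305D13Rik were 2.36 and 3.27 FPKM in Ret null and 0.688 and 2.08 FPKM in wild type. Gm13157 and Gm13212, which were tested and not called, averaged 9.11 and 5.95 FPKM in Ret null and 8.23 and 5.63 FPKM in wild type. The other 4 stayed under 1 FPKM and were not tested. Gm13242, Zfp600, Gm13247 and Rex2 averaged 0.523, 0.517, 0.439 and 0.657 FPKM in Ret null and 0.299, 0.231, 0.306 and 0.301 FPKM in wild type. All 4 means were higher in Ret null while the libraries of the labels overlapped. The share of all low genes with a higher mean is not given here. Of the 75-base windows of these 4 genes, 57.1%, 76.6%, 22.9% and 83.5% occur in other genes, so their reads are uncertain. Rex2 had 0.358 to 0.891 FPKM in Ret null and 0.190 to 0.440 FPKM in wild type. Promoters of Gm13152, Zfp933 and Casz1 aligned over at most 32 bases.

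The proteins through which KRAB zinc finger proteins act were a list of 24 genes, of which 23 were tested at each stage. At E10.5 none was higher and 2 were lower in Ret null, Cbx5 (a heterochromatin protein; log2 difference -0.30, limma adjusted p = 0.0405) and Pphln1 (a HUSH complex subunit; -0.26, limma adjusted p = 0.0396), with a list median of -0.03 beside 0.01 over all genes, of which 2.67% were lower. Without the Ret null libraries that hold Ret neither was called (-0.19 and -0.14, limma adjusted p = 0.176 and 0.35), the list median was 0.09, and 0.453% of all genes were higher and 0.069% lower. At E12.5 none was called. At E14.5, 7 were higher and none lower, where 10.9% of all genes were higher, with a median of 0.19 beside 0.04 over all genes. The 4 with the smallest p-values were Smarcad1 (a chromatin remodeller; 0.36), Pphln1 (0.27), Dnmt3a (a DNA methyltransferase; 0.38) and Setdb1 (0.25), with limma adjusted p of 0.0144, 0.0153, 0.0175 and 0.0195. Without the Ret null libraries that hold Ret, 5 were higher at E14.5 with a list median of 0.24, where 3.96% of all genes were higher and 4.65% lower.

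Of 11 KRAB zinc finger genes elsewhere in the genome with described targets, 8 were tested. At E10.5 none was higher and 1 was lower, Zfp568 (-0.33, limma adjusted p = 0.0301), a repressor of Igf2 in the mouse embryo, where 2.67% of all genes were lower. Without the Ret null libraries that hold Ret it was not called (-0.16, limma adjusted p = 0.26). At E12.5 none was called. At E14.5 3 were higher and none lower, where 10.9% of all genes were higher: Zfp445 (0.38), which takes part in imprint maintenance, Zfp568 (0.32) and Zfp708 (0.31), with limma adjusted p of 0.0362, 0.037 and 0.0467. Without the Ret null libraries that hold Ret none of the 8 was called at E14.5, where the share of all genes called higher was 3.96%. The list median was then 0.27, against 0.24 with all libraries, and Zfp445, Zfp568 and Zfp708 differed by 0.43, 0.41 and 0.33 (limma adjusted p = 0.067, 0.0589 and 0.147).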

How the data were processed

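The 36 libraries were made from polyadenylated RNA of embryonic mouse gut and read as 75-base pairs, per the labels. The submitters' processing notes name Picard, TopHat2, Cufflinks, Cuffdiff and mm10, without versions or settings. The deposited tables hold FPKM per gene, each with an interval by the authors, per the file headers; depth was read from the interval widths. Groups follow the labels. Members and gene lists were chosen with earlier results of these data known, and named genes by a rule on calls and levels.

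Each stage was fitted by limma 3.58.1 (R 4.3.3) to log2(FPKM + 1) as 4 group means, with trended empirical Bayes, Benjamini-Hochberg adjustment and a threshold of 0.05. A gene entered where at least 3 samples reached 1 FPKM and its status was OK throughout. At E12.5 and E14.5 the members fell below that filter, so two-sided exact permutation tests of log2(FPKM + 1) replaced the planned fit. They were made the main test after the unfiltered limma values had been seen, and for Zfp534 by genotype at E14.5 the 2 tests differ in the call. Fingers were counted in the longest open reading frames of GENCODE M21 (GRCm38) transcripts, in place of RefSeq proteins. All tests were tried on simulated data. The labels do not say whether libraries are separate embryos, so p-values measure only the spread between samples, possibly a technical one. Averaged pairs differed by at most 1.1 times counting noise with at most 1% of genes beyond 3 SD. Alternatives changed the pseudocount, filter, scaling, averaging, libraries and replicate block. Python 3.11.15 and matplotlib 3.10.9 were used.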

Additional observations from a re-analysis of the deposited data

Results flagged for a closer look

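The genotype difference of Gm13154 at E14.5 differed between the sexes by 0.25 on the log2(FPKM + 1) scale, larger in males (exact permutation p = 0.025, limma adjusted p = 0.954). In males it had 0.414, 0.493 and 0.623 FPKM in Ret null and 0.191, 0.205 and 0.177 FPKM in wild type, with no overlap; in females it had 0.376, 0.499 and 0.404 FPKM in Ret null and 0.252, 0.341 and 0.439 FPKM in wild type, which overlapped. The exact permutation p was 0.065 without Ret null female 1, 0.06 without Ret null female 3, Ret null male 3 or wild-type male 3, 0.05 without wild-type male 1 and 0.1 without the Ret null libraries that hold Ret. No member library stood far enough from its group to be marked as an outlier.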

How the results depend on the processing

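The sex results of both members, at all 3 stages, and the Zfp534 genotype-by-sex result at E14.5 stayed on the same side of the threshold under every alternative run, as did the Gm13154 genotype difference at E14.5 (0.18 to 0.66, with p from 0.00217 to 0.0474) and the count of 0 zinc finger neighbours at E12.5. The E14.5 Zfp534 difference kept its size, 0.22, but not its call in the unfiltered limma fit (adjusted p = 0.127) and in that fit with the replicate block (0.22, adjusted p = 0.183); leaving out each library gave 0.17 to 0.26. The Gm13154 genotype-by-sex value lost its call without the Ret null libraries with Ret (0.23), in the unfiltered fit (0.25) and with the replicate block (0.25, adjusted p = 0.974), and was 0.20 to 0.30 on leaving out each library. The count of called zinc finger neighbours at E10.5 was 1 without the Ret null libraries with Ret. That entry was Gm13051, which entered the fit only through Ret null libraries. The E10.5 count was 3 without the libraries whose sex RNA went against the label, and 4 to 6 on leaving out each library. At E14.5 it was 1 without the Ret null libraries with Ret and 1 to 4 on leaving out each library. Over all genes at E10.5, upper-quartile scaling gave 567 higher and 821 lower, against 739 higher and 352 lower as deposited; at E14.5 it gave 898 and 761, against 1504 and 671. Same-numbered Ret null and wild-type libraries deviated from their group means with correlations of -0.289 to 0.33, and 4 of 16 such pairs were over 0.1. Whether equal numbers share a batch was not tested. The blocked fits without the level filter and the averaging of E14.5 Ret null males 2 and 3, which changed no call, were added after seeing the data. The cause of each lost call was not tested. Both members stayed under 1 FPKM at E12.5 and E14.5. Depth at E12.5 was 17.5 to 41.0 M fragments in Ret null libraries and 22.9 to 30.9 M in wild type. At E14.5 it was 6.19 to 8.09 M and 4.88 to 6.79 M, and there few fragments limit the members.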
